A study of Mus musculus with 14 samples.

Results

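Interferon-stimulated antiviral genes are the genes that cells switch on after they sense an interferon. A list of 40 such genes was followed in mouse colon with and without experimental colitis. The list was drawn up by function, in 11 role groups, and each gene was represented by the array probe with the highest mean signal among those whose transcript accession maps to it. A probe was found for 37 of the 40 genes, out of 19096 genes with a matched probe, and all 37 were bright enough to be tested, beside 15540 genes tested in all. No probe accession could be matched to Mx1, Mx2 or Dtx3l through the gene table used, and they were not analysed here, so the MX GTPase group is not represented.

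Total RNA came from the whole colon of 14 female C57BL/6 mice aged 4 to 6 months, 1 mouse per array. Flox mice carry GR fl/fl alleles, that is, loxP-flanked copies of the glucocorticoid receptor (GR) gene, and served as controls. GR iKO mice carry the same alleles together with Villin-cre, which removes GR constitutively from the epithelium of the intestine, while other cells of the colon wall keep it. Mice of each genotype drank regular water (4 Flox, 4 GR iKO) or water with 2.5% dextran sulfate sodium (DSS) for 7 days (3 Flox, 3 GR iKO). DSS is a polymer that injures the colonic epithelium and causes colitis. Since the RNA is from whole tissue, more cells of a type and more RNA per cell cannot be told apart in any value below.

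Interferons are secreted proteins of 3 types. Type I interferons (IFN-alpha and IFN-beta) and type III interferons (IFN-lambda) activate a complex that holds STAT2 and IRF9 and binds the interferon-stimulated response element (ISRE) of their target genes. Type II interferon (IFN-gamma), made mainly by T cells, natural killer cells and other lymphoid cells, acts through another DNA element, the gamma-activated sequence (GAS). Many targets respond to more than 1 type. In the intestine, epithelial cells respond strongly to IFN-lambda and IFN-gamma, and glucocorticoids are known to dampen interferon signalling in several cell types.

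Both elements were searched for in the promoters of the members. In the RefSeq promoter table (build GRCm38.p6, 250 bases before to 50 bases after each start, both strands searched), 30 of the 40 members had an entry. The ISRE core, spelled GAAA, 2 bases of any kind, GAAA, was found for 18 of these 30 members (60%), against 3.99% of all 27025 genes in the table. The GAS, spelled TTC, 3 bases of any kind, GAA, was found for 7 members (23.3%), against 9.55% of all genes, and 5 members (16.7%) held both, against 0.614% of all genes. Neither motif was found for 10 of the 30. The ISRE core was found for 3 of 3 immunity-related GTPases, 2 of 2 guanylate-binding proteins and 2 of 3 IFIT genes, and the GAS for 2 of the 3 immunity-related GTPases. These are matches of letters in a fixed window and not measured binding sites. The 180 bases before the start are shown for 6 members whose levels are described below, written 5′ to 3′ along the gene in lower case, with the bases of an ISRE core or a GAS on either strand in capitals:
Isg15 (chr4:156200819-156200998, minus strand): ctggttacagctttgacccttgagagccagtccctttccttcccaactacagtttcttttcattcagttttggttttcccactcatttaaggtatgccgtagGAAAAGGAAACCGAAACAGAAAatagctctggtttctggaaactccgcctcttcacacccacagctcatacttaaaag
Ifit1 (chr19:34640709-34640888, plus strand): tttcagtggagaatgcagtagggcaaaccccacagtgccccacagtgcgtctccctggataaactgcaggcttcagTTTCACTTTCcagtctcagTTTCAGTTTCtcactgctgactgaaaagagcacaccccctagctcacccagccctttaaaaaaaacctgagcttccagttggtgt
Ifit3 (chr19:34583349-34583528, plus strand): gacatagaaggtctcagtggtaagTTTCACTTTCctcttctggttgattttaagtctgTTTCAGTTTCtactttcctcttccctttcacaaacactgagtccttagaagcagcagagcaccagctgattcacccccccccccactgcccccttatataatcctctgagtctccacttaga
Gbp2 (chr3:142620483-142620662, plus strand): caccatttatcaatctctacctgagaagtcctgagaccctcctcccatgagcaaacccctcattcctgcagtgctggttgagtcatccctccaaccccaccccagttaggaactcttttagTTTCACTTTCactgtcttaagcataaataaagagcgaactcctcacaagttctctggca
Igtp (chr11:58199376-58199555, plus strand): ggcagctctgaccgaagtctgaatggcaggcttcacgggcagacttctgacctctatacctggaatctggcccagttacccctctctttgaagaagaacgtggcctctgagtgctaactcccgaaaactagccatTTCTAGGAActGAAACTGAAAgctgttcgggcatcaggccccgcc
Tgtp1 (chr11:48992247-48992426, minus strand): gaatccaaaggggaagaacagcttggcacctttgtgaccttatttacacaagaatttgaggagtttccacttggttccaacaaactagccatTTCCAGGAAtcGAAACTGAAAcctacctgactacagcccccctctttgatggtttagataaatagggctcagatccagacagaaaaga
Isg15 held 3 overlapping ISRE cores that begin at −78, −72 and −66 relative to the start. Ifit1 and Ifit3 each held 2 separate cores on the opposite strand, and Gbp2 held 1. In Igtp and Tgtp1, a GAS was followed after 2 bases by an ISRE core, beginning at −45 and −34 in Igtp and at −88 and −77 in Tgtp1. The GAS reads the same on both strands and is counted once. In Bst2, which held both motifs, they shared bases. An ISRE core was also found for 4 members that did not rise in both genotypes below (Ifih1, Oas1a, Oas1g and Oas3), and none for 8 of the 22 members with an entry that rose in both, Ifi44 and Oasl2 among them.

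Some facts of the whole series bear on the values. Levels are log2 processed signal minus the 75th percentile of the array, so 0 is the level at that percentile, and a difference of 1 is a 2-fold change in signal. The 75th percentile lay between 262 and 1003 intensity units, lowest on Flox DSS replicate 4, and 62.6% to 71.3% of probes were well above background. Nr3c1, the gene that encodes GR, had a lower level at its brightest probe on all 7 GR iKO arrays than on any Flox array (−0.80, SE 0.10, adjusted p = 0.00911 on water and −0.83, SE 0.20, adjusted p = 0.0922 on DSS), and where its probe lies relative to the deleted part was not determined. A further Nr3c1 probe was also lower throughout (−0.88 on water and −0.81 on DSS). Each of its remaining probes overlapped between genotypes under 1 treatment only. The first overlapped on DSS (−0.40, adjusted p = 0.628) and not on water (−1.07, adjusted p = 0.143). The other overlapped on water (−0.84) and not on DSS (−0.86, adjusted p = 0.573). Each group always sat at the same position of its slides, so position and group cannot be told apart. Signal of spike-in transcripts relative to the 75th percentile was higher on DSS arrays (2.31 to 4.73, log2) than on water arrays (1.60 to 2.19). Scaling to these transcripts instead moved the DSS change of the median probe from −0.09 to −2.45 in Flox and from −0.02 to −0.99 in GR iKO, so every change below is a change relative to the other genes of the same array. This scaling takes 2.36 off every log2 change with DSS in Flox and 0.96 off every one in GR iKO, and a rise smaller than that turns below 0 under it.

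The first question was how the antiviral genes changed in colitis in each genotype. With DSS, 30 of 37 members rose and 1 fell in Flox colons, and 32 rose and none fell in GR iKO colons (limma, Benjamini-Hochberg adjusted p under 0.05 over 29523 probes), whereas under spike-in scaling 3 rose and 17 fell in Flox and 18 rose in GR iKO. Over all tested probes, that scaling called 0.715% higher and 85.2% lower in Flox, and 2.49% higher and 43% lower in GR iKO. Under the 75th percentile scaling, 21.8% of all tested probes rose and 25.4% fell in Flox, and 19% rose and 19.7% fell in GR iKO. The median log2 change of the members was 1.83 in Flox (range −0.62 to 4.66) and 1.97 in GR iKO (range 0.13 to 5.83), against −0.09 and −0.02 for all tested probes. At least a 2-fold rise was seen for 26 members in Flox and 30 in GR iKO. Every DSS value lay above every water value for 29 members in Flox and 33 in GR iKO, which held for 25.8% and 22.6% of all tested probes. Under spike-in scaling, 14 members in Flox and 30 in GR iKO were above 0, while 33 and 37 were above the median of all probes. The size of the change varied widely among members and in a like order in both genotypes, with a Pearson correlation across the 37 members of 0.95 between separate sets of mice.

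**Figure D1:**
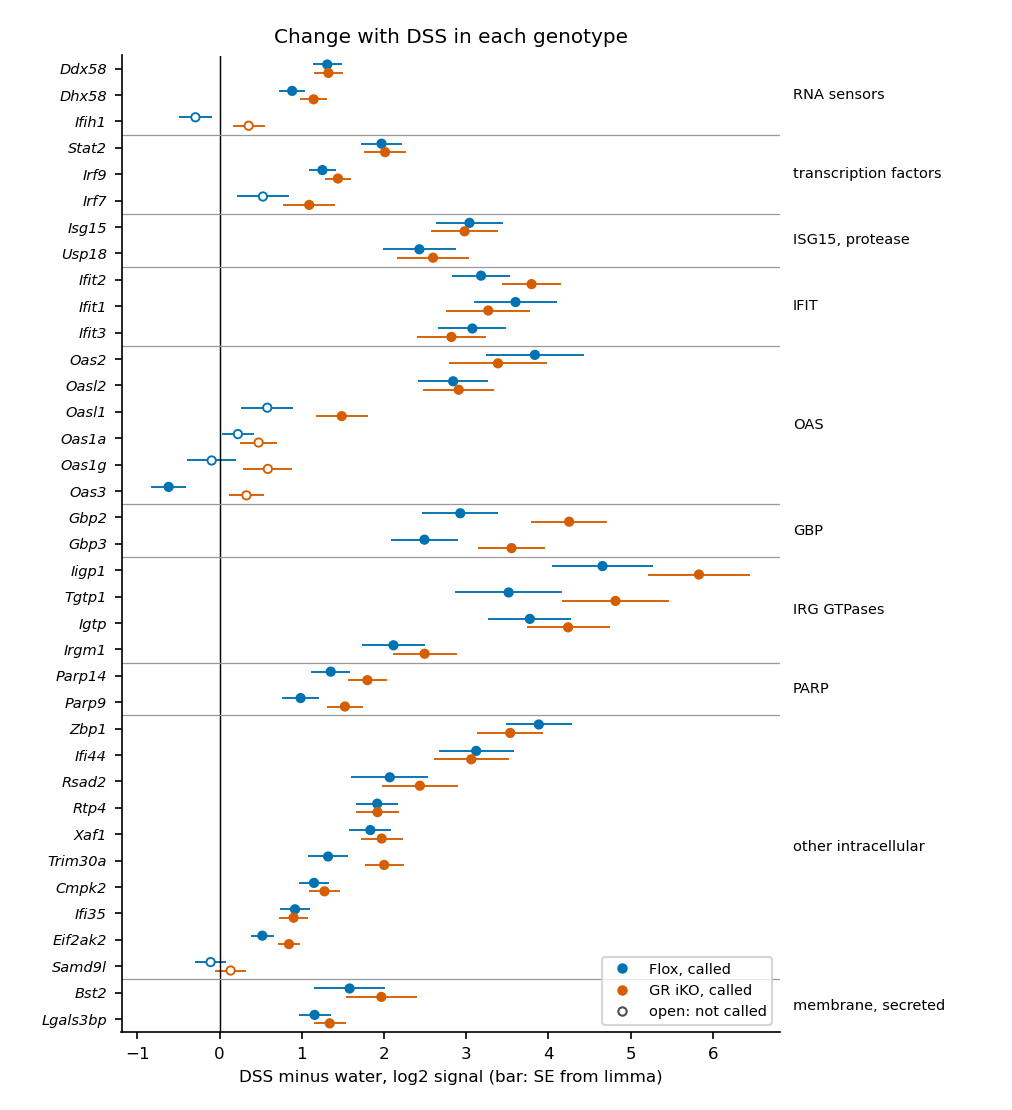
DSS minus water in log2 signal (horizontal axis) for each of 37 members (rows, grouped by role), in Flox (blue) and GR iKO (orange) colons. Points are group differences, bars are SE from limma, and open points were not called. Iigp1 is farthest to the right at 4.66 and 5.83, and Oas3 in Flox is the only called point left of 0, although 14 of the 37 Flox values and 30 of the 37 GR iKO values are above 0 under spike-in scaling.

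The RNA sensors detect viral RNA in the cytoplasm and start interferon production. Ddx58 encodes RIG-I, which recognises RNA ends. Its level was −1.35, −1.61, −1.42 and −1.30 on Flox water, −1.21, −1.23, −1.37 and −1.53 on GR iKO water, 0.11, 0.05 and −0.49 on Flox DSS, and −0.23, 0.01 and 0.18 on GR iKO DSS. All 6 DSS values exceeded all 8 water values. Ddx58 rose by 1.31 in Flox (SE 0.18, adjusted p = 0.000115) and by 1.32 in GR iKO (SE 0.18, adjusted p = 0.000171). Under spike-in scaling the Flox change was −1.05, and the GR iKO change was not called (0.36, adjusted p = 0.423). A dimmer Ddx58 probe was not called in Flox (0.79, adjusted p = 0.156), while its remaining probes were (1.62 and 1.31), and all were called in GR iKO. Dhx58 (LGP2, a regulator of both sensors) rose by 0.88 and 1.14. Under spike-in scaling it was at −1.48 in Flox, and was not called in GR iKO (0.18, adjusted p = 0.688). Ifih1, which encodes MDA5, the sensor of long double-stranded RNA, was at 1.80, 1.58, 1.87 and 2.06 on Flox water, at 1.77, 1.89, 2.07 and 2.01 on GR iKO water, at 1.81, 1.20 and 1.59 on Flox DSS, and at 2.26, 2.57 and 2.02 on GR iKO DSS. DSS and water values overlapped in both genotypes, and neither change was called (−0.29, adjusted p = 0.236 in Flox and 0.35, adjusted p = 0.176 in GR iKO). Its second probe gave −0.28 and 0.28.

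The transcription factors of the list carry the interferon signal to DNA. Stat2 is a subunit of the factor that binds the ISRE. Its level was 0.46, 0.38, 0.32 and 0.36 on Flox water, 0.61, 0.27, 0.46 and 0.31 on GR iKO water, 3.03, 2.32 and 1.69 on Flox DSS, and 1.89, 2.51 and 2.87 on GR iKO DSS. Water values were tightly grouped and all DSS values lay above them. Stat2 rose by 1.97 in Flox (SE 0.25, adjusted p = 7.26e-05; −0.39 under spike-in scaling) and by 2.01 in GR iKO (SE 0.25, adjusted p = 0.000104). Irf9, its DNA-binding partner, rose by 1.25 (−1.11 under spike-in scaling) and 1.44 (0.48 and not called under spike-in scaling). Irf7, which amplifies type I interferon production, was at 0.62, 0.73, 0.42 and 0.33 on Flox water, 0.79, 0.59, 0.75 and 0.31 on GR iKO water, 1.63, 1.17 and 0.35 on Flox DSS, and 0.89, 2.41 and 1.80 on GR iKO DSS. The third Flox DSS mouse was within the water range, and Irf7 was called in GR iKO (1.09, SE 0.32, adjusted p = 0.0174) and not in Flox (0.53, SE 0.32, adjusted p = 0.195; −1.83 under spike-in scaling). The GR iKO call was lost under spike-in scaling (0.13, adjusted p = 0.818). It was also lost without GR iKO DSS replicate 3 (0.74, adjusted p = 0.117) or replicate 4 (1.04, adjusted p = 0.0707). The 2 changes were not shown to differ (interaction 0.56, adjusted p = 0.609).

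ISG15 is a ubiquitin-like protein that is attached to other proteins during infection, and USP18 removes it and blocks the type I receptor. Isg15 was at −0.79, −0.54, −0.92 and −0.62 on Flox water, 0.63, 0.13, −0.14 and −0.54 on GR iKO water, 3.28, 2.21 and 1.47 on Flox DSS, and 2.61, 3.09 and 3.30 on GR iKO DSS. It rose by 3.04 in Flox (8.22-fold, SE 0.40, adjusted p = 9.83e-05) and by 2.98 in GR iKO (7.89-fold, SE 0.40, adjusted p = 0.000181). Usp18 was at −2.33, −1.58, −2.32 and −2.10 on Flox water, −1.36, −1.38, −2.10 and −2.20 on GR iKO water, 1.27, 0.36 and −0.59 on Flox DSS, and 0.28, 0.98 and 1.25 on GR iKO DSS. No DSS value of either gene fell within the water range. Usp18 rose by 2.43 (SE 0.44, adjusted p = 0.000792) and 2.60 (SE 0.44, adjusted p = 0.000771). Under spike-in scaling neither Isg15 (0.68, adjusted p = 0.24) nor Usp18 (0.07, adjusted p = 0.918) was called in Flox.

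The IFIT proteins bind viral RNA and block its translation. All 3 rose in both genotypes, with median changes of 3.18 in Flox and 3.27 in GR iKO. Ifit2 was at −3.36, −3.14, −3.36 and −3.34 on Flox water, −3.24, −3.14, −3.45 and −3.29 on GR iKO water, 0.97, −0.28 and −1.05 on Flox DSS, and −0.38, 0.84 and 1.07 on GR iKO DSS. Its water values spanned a narrow range and its lowest DSS value was far above them, with changes of 3.18 (9.06-fold, SE 0.36, adjusted p = 3.04e-05) and 3.79 (13.9-fold, SE 0.36, adjusted p = 1.74e-05). Ifit3 was at −0.67, −0.59, −0.86 and −0.47 on Flox water, −0.04, 0.03, −0.48 and −0.75 on GR iKO water, 2.98, 3.14 and 1.17 on Flox DSS, and 2.07, 2.19 and 3.26 on GR iKO DSS. It rose by 3.07 (SE 0.42, adjusted p = 0.000109) and 2.82 (SE 0.42, adjusted p = 0.000316). Ifit1 rose by 3.60 and 3.27. Under spike-in scaling none of the 3 was called in Flox (Ifit1 1.24, Ifit2 0.82 and Ifit3 0.71).

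The OAS family was divided. OAS proteins sense double-stranded RNA, and the active enzymes among them make a messenger that switches on the RNA-degrading enzyme RNase L. In Flox, 2 of 6 rose (Oas2 and Oasl2) and 1 fell (Oas3), and in GR iKO 3 rose (these 2 and Oasl1, by 1.49). Oas2 was at −2.72, −2.93, −3.73 and −2.55 on Flox water, −1.11, −2.36, −2.02 and −2.99 on GR iKO water, 1.60, 0.89 and 0.07 on Flox DSS, and 0.88, 1.56 and 1.35 on GR iKO DSS. It rose by 3.83 (14.3-fold, SE 0.60, adjusted p = 0.00029) and 3.39 (10.5-fold, SE 0.60, adjusted p = 0.000981). Under spike-in scaling neither Oas2 (1.47, adjusted p = 0.0601) nor Oasl2 (0.48, adjusted p = 0.421) was called in Flox, nor was Oasl1 in GR iKO (0.52, adjusted p = 0.308). The Oas3 probe was at −1.69, −1.79, −1.66 and −1.87 on Flox water, −1.64, −1.61, −2.05 and −1.70 on GR iKO water, −2.26, −2.83 and −2.02 on Flox DSS, and −1.68, −1.05 and −1.53 on GR iKO DSS. Flox DSS values lay below the Flox water values, and GR iKO DSS values overlapped those of GR iKO water. This probe fell by 0.62 in Flox (SE 0.21, adjusted p = 0.0282) and was not called in GR iKO (0.33, SE 0.21, adjusted p = 0.245). A dimmer Oas3 probe rose by 2.84 (adjusted p = 0.00286) and 3.12 (adjusted p = 0.0022), so the 2 probes went opposite ways in Flox and the direction for this gene is not settled. The call for the brighter probe was also lost without Flox DSS replicate 1 (adjusted p = 0.0792) or replicate 2 (−0.39, adjusted p = 0.232), with slide as a block (−0.60, adjusted p = 0.0547) and with normexp background correction (−0.32, adjusted p = 0.175). Oas1a (0.22 and 0.47) and Oas1g (−0.10 and 0.59) were not called in either genotype. The Oas1a spot on GR iKO DSS replicate 3 was an outlier spot set to missing, and no Flox DSS array measured Oas1g well above background. Oas1a and Oas1g are close copies, and whether their probes tell them apart was not tested.

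The guanylate-binding proteins (GBPs) and the immunity-related GTPases (IRGs) gather on the vacuoles of intracellular microbes and are classic targets of IFN-gamma. Iigp1, an IRG, had the largest change of the list in both genotypes, while Zbp1 and Oas2 exceeded every other GBP and IRG in Flox. Gbp2 was at 0.87, 0.71, 1.19 and 1.46 on Flox water, 0.91, 1.01, 1.36 and 1.32 on GR iKO water, 5.18, 4.19 and 2.59 on Flox DSS, and 5.86, 4.54 and 5.81 on GR iKO DSS. All DSS values lay above all water values, and Gbp2 rose by 2.93 in Flox (7.61-fold, SE 0.46, adjusted p = 0.000319) and by 4.25 in GR iKO (19.04-fold, SE 0.46, adjusted p = 4.32e-05). Gbp3 was at 0.19, 0.15, 0.23 and 0.70 on Flox water, 0.33, 0.59, 0.19 and 0.26 on GR iKO water, 3.89, 3.01 and 1.52 on Flox DSS, and 4.25, 3.09 and 4.35 on GR iKO DSS. It rose by 2.49 (SE 0.41, adjusted p = 0.000426) and 3.55 (SE 0.41, adjusted p = 6.31e-05). Under spike-in scaling neither Gbp2 (0.57, adjusted p = 0.381) nor Gbp3 (0.13, adjusted p = 0.83) was called in Flox.

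All 4 IRGs rose in both genotypes (under spike-in scaling in Flox, Iigp1 and Igtp were still called, Tgtp1 was at 1.15 with adjusted p = 0.162, and Irgm1 was below 0), with a median change of 3.64 in Flox and 4.53 in GR iKO. Iigp1, whose product disrupts the vacuoles of parasites and bacteria, was at −0.17, −0.04, −0.42 and 0.19 on Flox water, −0.37, 0.22, −0.22 and −0.41 on GR iKO water, 6.24, 4.58 and 2.81 on Flox DSS, and 6.45, 4.03 and 6.43 on GR iKO DSS. It rose by 4.66 (25.2-fold, SE 0.62, adjusted p = 9.62e-05) and 5.83 (56.9-fold, SE 0.62, adjusted p = 3.66e-05). Irgm1, a regulator of the other IRGs, was at 0.80, 1.07, 0.99 and 1.14 on Flox water, 1.22, 1.35, 1.27 and 1.41 on GR iKO water, 4.27, 2.99 and 2.08 on Flox DSS, and 4.15, 2.79 and 4.49 on GR iKO DSS. DSS values were above water values throughout. Irgm1 rose by 2.11 (SE 0.39, adjusted p = 0.000875; −0.25 under spike-in scaling) and 2.49 (SE 0.39, adjusted p = 0.000448). Igtp rose by 3.77 and 4.24. The Tgtp1 probe rose by 3.52 and 4.81, and whether it tells Tgtp1 from its near-identical copy Tgtp2 was not tested.

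PARP9 and PARP14 belong to the ADP-ribosyltransferase family and modulate interferon signalling. Parp14 was at 2.38, 2.28, 2.44 and 2.89 on Flox water, 2.78, 2.74, 2.80 and 2.79 on GR iKO water, 4.46, 3.69 and 3.39 on Flox DSS, and 4.56, 4.37 and 4.79 on GR iKO DSS. It rose by 1.35 (SE 0.24, adjusted p = 0.000628) and 1.80 (SE 0.24, adjusted p = 0.000145), and 2 further probes rose by 1.72 and 3.44 in Flox and by 2.32 and 2.81 in GR iKO. Parp9 was at 0.18, 0.44, 0.52 and 0.74 on Flox water, 0.46, 0.59, 0.75 and 0.80 on GR iKO water, 1.98, 1.17 and 1.22 on Flox DSS, and 2.11, 2.07 and 2.34 on GR iKO DSS. Parp9 rose by 0.98 (SE 0.22, adjusted p = 0.00315) and 1.52 (SE 0.22, adjusted p = 0.00029). No DSS value of either gene overlapped the water range, but under spike-in scaling the Flox changes were −1.01 for Parp14 and −1.38 for Parp9. In GR iKO neither was called under that scaling (0.83 for Parp14 and 0.56 for Parp9).

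Among the other intracellular effectors, 9 of 10 rose in each genotype, while 2 of 10 in Flox and 7 of 10 in GR iKO were above 0 under spike-in scaling. Zbp1, a sensor of Z-form nucleic acids that can trigger cell death, was at 1.16, 0.61, 0.78 and 0.94 on Flox water, 1.69, 1.60, 1.06 and 0.63 on GR iKO water, 5.38, 4.45 and 4.43 on Flox DSS, and 4.00, 5.16 and 5.18 on GR iKO DSS. It had the largest change of this group, 3.88 in Flox (14.7-fold, SE 0.40, adjusted p = 1.82e-05) and 3.53 in GR iKO (11.6-fold, SE 0.40, adjusted p = 5.6e-05). Samd9l, a restriction factor that limits translation, was at −1.21, −0.85, −0.82 and −0.98 on Flox water, −0.70, −0.56, −0.71 and −0.66 on GR iKO water, −0.70, −0.92 and −1.61 on Flox DSS, and −0.66, −0.44 and −0.46 on GR iKO DSS. It was the exception, and neither change was called (−0.11, adjusted p = 0.661 and 0.13, adjusted p = 0.61). Ifi44 rose by 3.12 and 3.06, and was not called in Flox under spike-in scaling (0.76, adjusted p = 0.224). Rsad2, which encodes viperin, an enzyme that makes a chain-terminating nucleotide, rose by 2.07 and 2.44, and Cmpk2, a nucleotide kinase gene beside it, by 1.15 and 1.28. Under spike-in scaling the Flox values were −0.29 and −1.21, and Cmpk2 was not called in GR iKO (0.31, adjusted p = 0.537). A further Rsad2 probe (1.25, adjusted p = 0.116) and a further Cmpk2 probe (0.76, adjusted p = 0.0623) were not called in Flox. Both were called in GR iKO, and another Rsad2 probe was called in both genotypes (3.21 and 2.48). Eif2ak2, which encodes PKR, the kinase that stops translation on double-stranded RNA, had the smallest called rise, 0.52 (SE 0.14, adjusted p = 0.00882) and 0.84 (SE 0.14, adjusted p = 0.000645), which spike-in scaling turned to −1.84 and −0.12. Its Flox call was lost without Flox DSS replicate 1 (adjusted p = 0.105).

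BST2 (tetherin) holds budding virus at the cell surface, and LGALS3BP is a secreted glycoprotein. Bst2 was at 2.20, 2.30, 2.51 and 2.31 on Flox water, 2.05, 2.22, 2.66 and 2.18 on GR iKO water, 4.81, 4.47 and 2.46 on Flox DSS, and 4.64, 3.29 and 4.79 on GR iKO DSS. The third Flox DSS mouse lay within the Flox water range. Bst2 rose by 1.58 (SE 0.44, adjusted p = 0.0103; −0.78 under spike-in scaling) and 1.97 (SE 0.44, adjusted p = 0.00389), and the Flox call was lost without Flox DSS replicate 1 (adjusted p = 0.0992) or replicate 2 (adjusted p = 0.0763). Lgals3bp was at 3.69, 3.90, 3.29 and 3.52 on Flox water, 3.83, 3.76, 3.68 and 3.64 on GR iKO water, 5.06, 4.74 and 4.46 on Flox DSS, and 5.11, 5.04 and 5.05 on GR iKO DSS. It rose by 1.16 (SE 0.20, adjusted p = 0.000512) and 1.34 (SE 0.20, adjusted p = 0.000297). Under spike-in scaling Lgals3bp was at −1.21 in Flox, and was not called in GR iKO (0.38, adjusted p = 0.487).

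The rest of the interferon pathway was read from lists of its parts. Of 11 interferon genes, 3 were tested, since the probes of the others were absent or dim. Ifng, which encodes IFN-gamma, was at 1.29, −1.12 and −2.24 on Flox DSS and at 1.51, 0.37 and 2.87 on GR iKO DSS, and all Flox water arrays left it below the limit for detection above background. Ifng was at least 39.95-fold higher on DSS in Flox (adjusted p = 8.87e-05) and was called higher in GR iKO (adjusted p = 2.81e-05), where only 1 of 4 water arrays was above background, so no size of that change is given. Ifna2 (0.85, adjusted p = 0.248 in Flox and 0.35, adjusted p = 0.668 in GR iKO) and Ifna5 (−0.42, adjusted p = 0.607 and −0.34, adjusted p = 0.696) were not called. Of the 6 receptor genes, 2 rose in Flox and 4 in GR iKO, against 21.8% and 19% of all tested probes. Ifnar2, a subunit of the type I receptor, rose by 1.65 in both (−0.71 in Flox under spike-in scaling), and Ifnlr1, the IFN-lambda receptor, by 0.59 and 0.73 (−1.77 and −0.23). The IFN-gamma receptor gene Ifngr1 (0.51) and Il10rb (0.41), a shared subunit of the IFN-lambda receptor, were called in GR iKO and not in Flox (−0.20 and 0.16), which was not called as a difference between genotypes. Ifnar1 (−0.16 and 0.26) and Ifngr2 (0.45 and 0.48) were not called.

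Of 14 JAK-STAT and IRF signalling genes, 7 rose and 2 fell in Flox, and 9 rose and 2 fell in GR iKO. Irf1, an early IFN-gamma target, rose by 0.80 (adjusted p = 0.00829; −1.56 under spike-in scaling) and 1.31 (adjusted p = 0.000569). The feedback inhibitors Socs1 (2.91 and 3.76) and Socs3 (4.53 and 5.22) also rose. Of 12 tested genes of nucleic acid sensing, 5 rose and 1 fell in Flox, and 5 rose and 2 fell in GR iKO. The shares over all tested probes were 21.8% higher and 25.4% lower in Flox, and 19% and 19.7% in GR iKO. Under spike-in scaling, 2 of the 14 signalling genes and 0 of the 12 sensing genes were above 0 in Flox. In GR iKO these were 6 of 14 and 4 of 12. Of 31 further interferon-stimulated genes tested, 23 rose in Flox and 26 in GR iKO and none fell, with medians of 1.71 and 2.09 (−0.65 and 1.13 under spike-in scaling).

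Colitis did not raise the members to the same level in every mouse, which is plain in the heat map of members by array. Averaged over the 37 members, the level relative to the water arrays was 2.46, 1.76 and 1.04 on Flox DSS replicates 1, 2 and 4, and 2.20, 2.18 and 2.62 on GR iKO DSS replicates 1, 3 and 4. On water it lay between −0.24 and 0.25. Replicate 1 was the highest of the 3 Flox DSS mice for 35 of 37 members and replicate 4 the lowest for 32, whereas these arrays were highest and lowest for 27.9% and 37.8% of all tested probes. The median SD of a member between Flox DSS mice was 0.74 log2 units, against 0.26 for all tested probes, and between GR iKO DSS mice 0.39 against 0.34. On water it was 0.18 (Flox) and 0.16 (GR iKO), close to the 0.18 and 0.17 of all probes. Over all 14 arrays, deviations of members from their group means had a median pairwise correlation of 0.61 (666 pairs of genes measured on the same arrays).

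**Figure D2:**
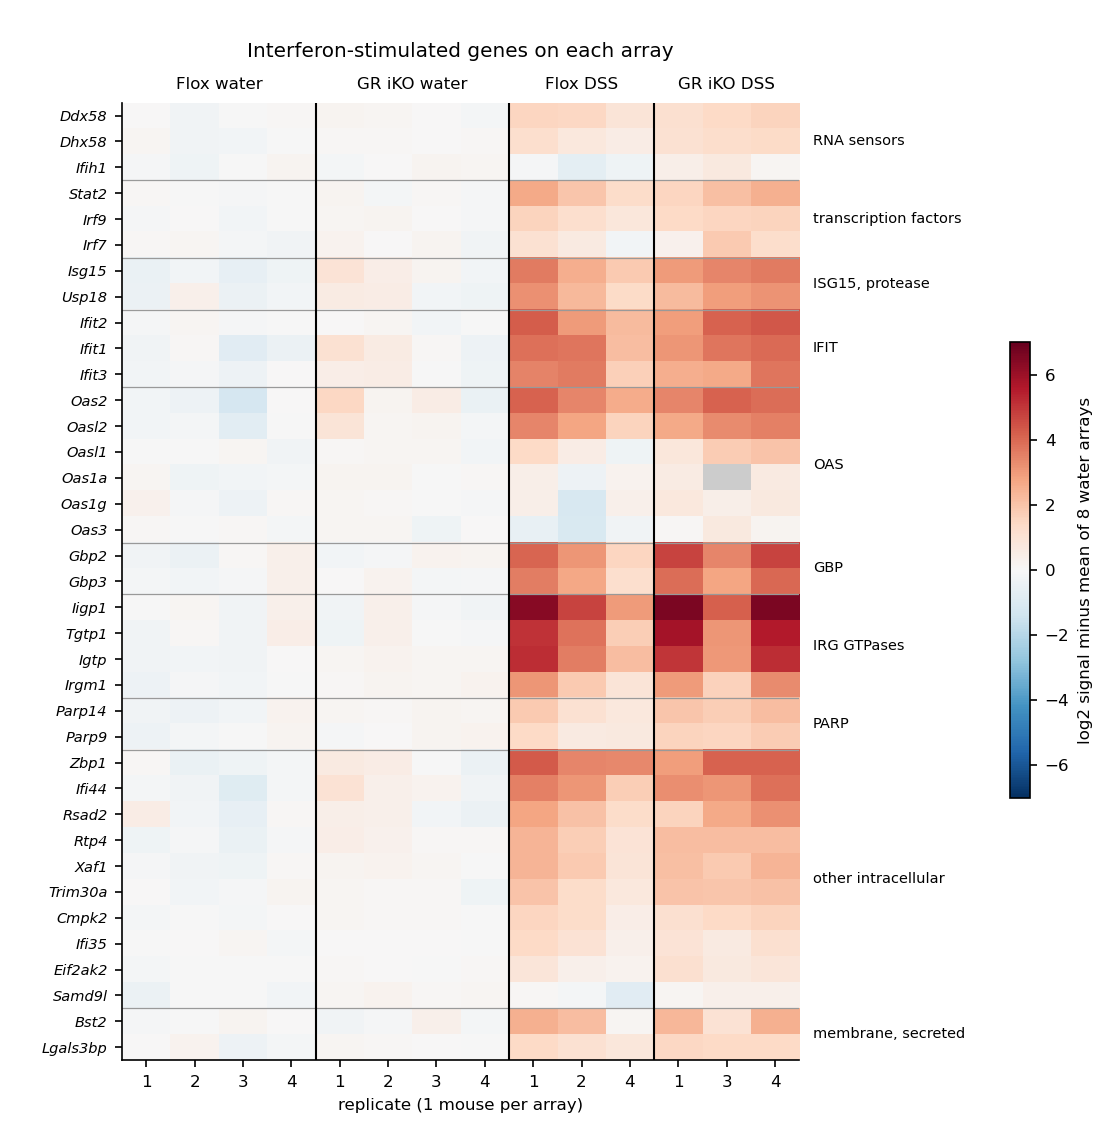
Level of each of 37 members (rows, grouped by role) on each of 14 arrays (columns, 1 mouse each), as log2 signal minus the mean of the 8 water arrays. Red is higher and blue lower, and grey is a missing spot. Flox DSS replicate 4 is paler than replicate 1 for nearly every member, with member averages of 1.04 and 2.46.

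The order of the mice differed between role groups in GR iKO. Replicate 3 was the lowest of the 3 GR iKO DSS mice for both GBPs and all 4 IRGs, by 1.21 to 2.61 log2 units below the mean of the other two. The GBPs and IRGs were not alone in this. Replicate 3 was also the lowest for Bst2 (−1.42 from that mean, within the range of the GBPs and IRGs), and by less for Ifi44 (−0.48), Xaf1 (−0.44), Parp9, Parp14 and others. For all 3 transcription factors, Isg15, Usp18 and all 3 IFIT genes, replicate 1 was the lowest instead. Of the 36 members measured on all 3 arrays, replicate 1 was lowest for 18, replicate 3 for 17 and replicate 4 for 1. Of all tested probes, 41.9% were lowest on replicate 1, 33.4% on replicate 3 and 24.8% on replicate 4. The levels of Ifng (1.51, 0.37 and 2.87 on replicates 1, 3 and 4) and Socs1 (4.47, 2.90 and 4.64) were also lowest on replicate 3, as for the GBPs and IRGs, and that of Irf1 (6.18, 6.44 and 6.80) was lowest on replicate 1. In Flox DSS mice, Ifng (1.29, −1.12 and −2.24) and Socs1 (4.27, 2.97 and 2.08) were in the order of most members, with replicate 1 highest and replicate 4 lowest. These orders were seen after the values were known and rest on 3 mice a group, with no test.

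**Figure D3:**
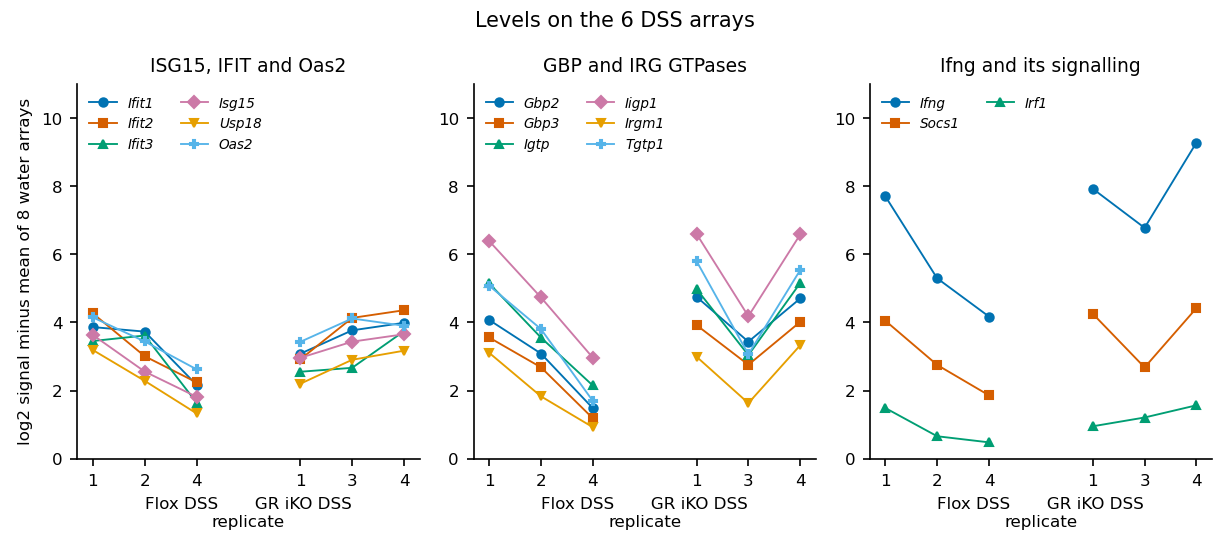
Levels on the 6 DSS arrays, as log2 signal minus the mean of the 8 water arrays, for 6 members of the ISG15, IFIT and OAS groups (left), the GBPs and IRGs (middle), and Ifng with 2 genes of its signalling (right). Lines join the values of 1 gene within a genotype, replicate numbers have no order, and Ifng was near or below background on water. The GBPs and IRGs, Ifng and Socs1 dip at GR iKO DSS replicate 3, where Iigp1 was at 4.03 against 6.45 and 6.43 before the water mean is taken off. Bst2, which is not drawn, was also lowest there.

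Some markers of other cell types moved with DSS too. Of all tested probes, 21.8% rose and 25.4% fell in Flox, and 19% rose and 19.7% fell in GR iKO. Neutrophil markers rose (7 of 8 in Flox and 8 of 8 in GR iKO) to list averages of 4.49 to 5.47 log2 units above water in Flox and 6.57 to 8.57 in GR iKO. These averages are not exact sizes. Cxcr2 and Mmp8 were at background level on all water arrays, Ltf on all GR iKO water arrays and Ngp on all Flox arrays. Macrophage and monocyte markers rose for 6 of 10 and 9 of 10, to levels of 1.09 to 1.57 and 1.60 to 2.41 (in Flox their median turned to −1.02 under spike-in scaling). Of 12 epithelial markers, 1 rose and 3 fell in Flox and 1 rose and 2 fell in GR iKO, with falls near those shares. T cell markers (7 tested) fell for 2 in Flox, also near the share of all probes, and none was called in GR iKO. B and plasma cell markers fell for 5 of 6 and 2 of 6. Of 6 markers of plasmacytoid dendritic cells, which are strong producers of type I interferon, 1 fell in Flox and 1 rose in GR iKO, and the defining marker Siglech was at background level on all Flox DSS and all GR iKO water arrays. Smooth muscle markers rose for 5 of 6 in Flox (0.93 to 1.73 above water, highest on replicate 4) and for none in GR iKO (−0.73 to 0.53), and the Flox median was −1.06 under spike-in scaling. Of all 29523 tested probes, 0 were called in the genotype by DSS interaction, so these counts do not show a difference between genotypes. On Flox DSS replicates 1, 2 and 4, the macrophage level was 1.38, 1.57 and 1.09 and the neutrophil level 5.47, 4.62 and 4.49. The member averages on these arrays were 2.46, 1.76 and 1.04. On GR iKO DSS replicates 1, 3 and 4, the macrophage level was 2.41, 1.60 and 1.65 and the neutrophil level 8.57, 6.57 and 7.62. The member averages there were 2.20, 2.18 and 2.62. The part of these cells in the levels of the antiviral genes was not tested.

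The second question was whether loss of epithelial GR altered the antiviral genes on regular water. No member was called (smallest adjusted p = 1.00), against 0.0237% of all probes, 7 probes in number. Without adjustment, 6 of 37 members had p under 0.05 (3.34% of all tested probes), all higher in GR iKO, with changes of 0.31 for Samd9l, 0.47 for Rtp4, 0.69 for Ifi44 and Ifit1, 0.74 for Isg15 and 0.86 for Oas2. This count was 0 with 1 spread shared by water and DSS arrays, 0 with analysis of variance without moderation, 2 under spike-in scaling and 3 with slide as a block, and it was also 3 without Flox water replicate 3 or GR iKO water replicate 1. The median difference was 0.13 (−0.01 for all tested probes) and 33 of 37 were above 0, 16 of 37 under spike-in scaling, which moved the median probe to −0.18. All 4 GR iKO values lay above all 4 Flox values for 4 members (10.8%, against 1.27% of all tested probes), namely Irgm1, Igtp, Rtp4 and Samd9l. Within the 4 slides, which each held both genotypes on water, the median difference of the members was 0.17, 0.24, 0.32 and −0.06.

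The third question was whether the genotypes differed in colitis. No member was called on DSS (limma with a separate weight for water and DSS arrays, smallest adjusted p = 0.114, for Oas3), against 0.0203% of all probes, 6 in number. Values were higher in GR iKO for 36 of 37 members, with a median difference of 0.55 (range −0.01 to 1.42) against 0.03 for all probes, and 9 members had an unadjusted p under 0.05, as did 17.6% of all tested probes. That count was 20 without Flox DSS replicate 1, 1 without Flox DSS replicate 2, 3 without Flox DSS replicate 4 and 2 without GR iKO DSS replicate 4. With only the arrays compared it was 3, with array quality weights 2, and under spike-in scaling 31, where 49.5% of all probes had p under 0.05. The 4 largest differences were those of GBPs and IRGs, while the IRGs Igtp (0.78) and Irgm1 (0.70) lay below Oasl1 (1.00) and Oas3 (0.95). Gbp2 was 1.42 higher (SE 0.59, adjusted p = 0.242), Tgtp1 1.27 (SE 0.83, adjusted p = 0.467), Iigp1 1.09 (SE 0.79, adjusted p = 0.523) and Gbp3 1.09 (SE 0.53, adjusted p = 0.308), none of them past the threshold. At the other end, Zbp1 (0.03, SE 0.51), Stat2 (0.08, SE 0.32), Ifit3 (0.08, SE 0.53) and Ddx58 (0.10, SE 0.23) had differences well inside their errors, which does not show that the genotypes were alike. All 3 GR iKO values lay above all 3 Flox values for 4 members (10.8%), near the 11.2% of all tested probes.

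**Figure D4:**
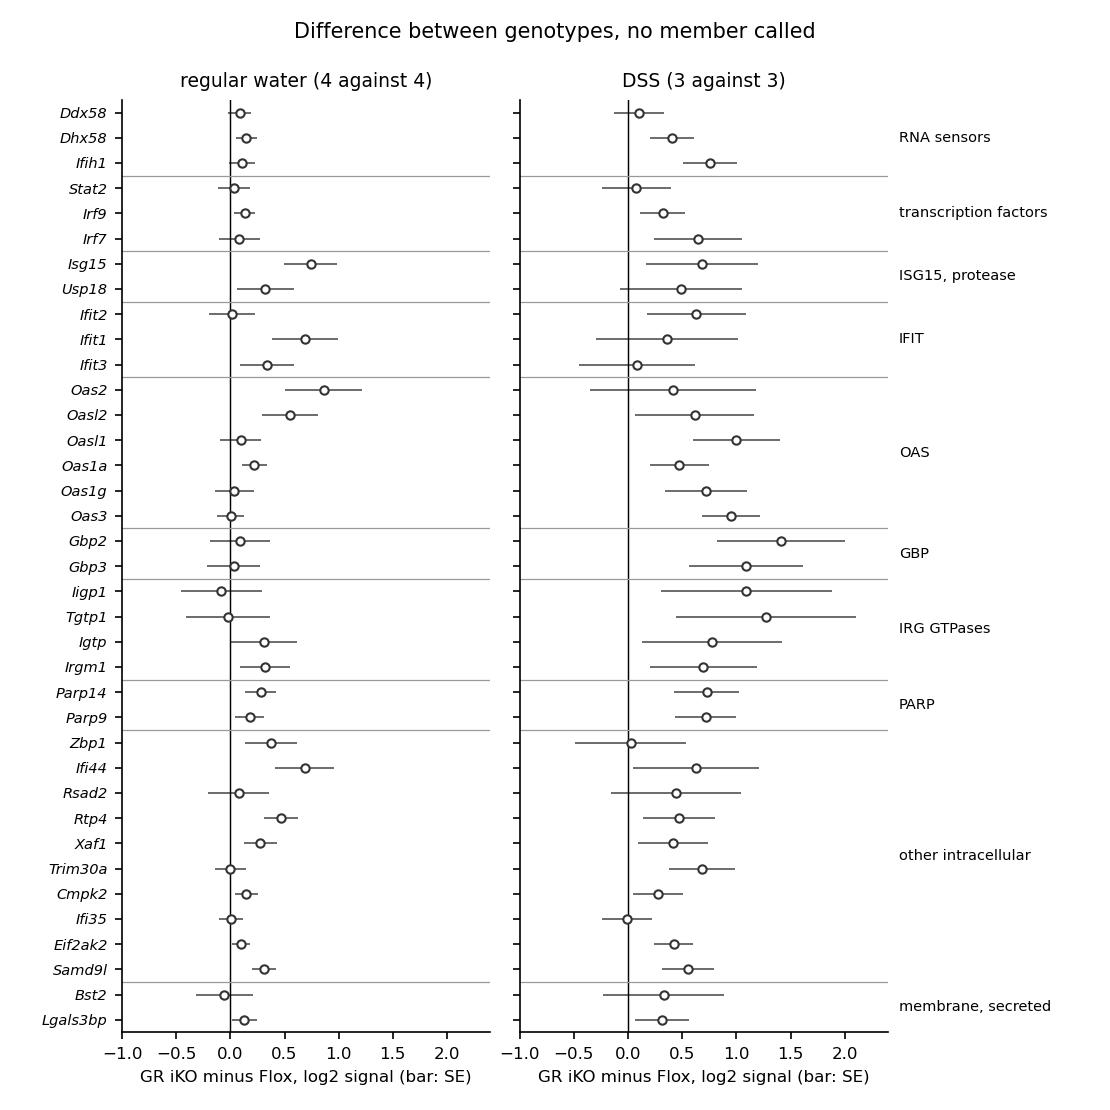
GR iKO minus Flox in log2 signal for each of 37 members (rows, grouped by role) on regular water (left) and on DSS (right). Points are group differences and bars are SE from limma. Open points mark that no difference was called. Most points on DSS lie right of 0, with a median of 0.55 that was 0.17 without Flox DSS replicate 4, and on water 33 of 37 lie right of 0 but 16 of 37 under spike-in scaling.

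The difference on DSS rested in large part on 1 mouse. Without Flox DSS replicate 4, the median difference of the members was 0.17 and 29 of 37 were above 0, and without Flox DSS replicate 1 it was 0.89. Both genotypes on DSS shared only 2 slides, and within these the median difference of the members was −0.49 and 1.50. With 1 spread shared by water and DSS arrays, 3 members were called higher in GR iKO: Oas3 (adjusted p = 0.0176), Ifih1 (adjusted p = 0.024) and Parp9 (adjusted p = 0.0434). Under that setting 6.44% of all probes were called higher and 6.78% lower, so 3 of 37 is near the background. The second Oas3 probe differed by 1.06 (adjusted p = 0.545). Ifng was 2.27 higher in GR iKO (SE 1.00, adjusted p = 0.265) and its second probe 2.74 higher (SE 0.72, adjusted p = 0.0997). All 8 neutrophil markers had higher values in GR iKO, with a median of 2.68, though Ngp was at background level on Flox DSS. Neutrophil markers were not alone in this. Values were also higher for 7 of 7 T cell, 6 of 6 B and plasma cell and 6 of 6 plasmacytoid dendritic cell markers. They were higher for 8 of 10 macrophage, 8 of 12 epithelial and 0 of 6 smooth muscle markers.

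The interaction term asks whether the DSS response itself differed between genotypes. No member was called (smallest adjusted p = 0.189), against 0% of all probes, and 2 members had an unadjusted p under 0.05, as did 14.8% of all tested probes. Under spike-in scaling, 15 members were called and their median was 1.70, with 29.3% of all probes called and a median probe of 1.43. The response was larger in GR iKO for 30 of 37 members, with a median difference of 0.26, which was −0.02 without Flox DSS replicate 4 and 0.50 without Flox DSS replicate 1. By value, the largest differences were those of Gbp2 (1.32, SE 0.65), Tgtp1 (1.30, SE 0.92), Iigp1 (1.17, SE 0.87) and Gbp3 (1.06, SE 0.58). Oas3 (0.95, SE 0.30, with 0.29 at its second probe) and Oasl1 (0.91, SE 0.45) came next. The IRGs Igtp (0.46, SE 0.71) and Irgm1 (0.38, SE 0.55) lay below these. The IFIT, ISG15 and Zbp1 values lay on both sides of 0, from −0.35 for Zbp1 to 0.61 for Ifit2. Whether the GBP and IRG members differed from the others in this respect was not tested.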

How the data were processed

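The authors hybridised RNA from each of 14 colons (500 ng, Cy3) to 1-colour Agilent mouse arrays and read the spots with Feature Extraction 12.0.0.7. Their deposited scanner tables give each spot an intensity after background subtraction and detrending, with no scaling between arrays. The deposited value table holds log2 values whose normalization is not stated. All its arrays have the same quartiles, and it was used as an alternative. The submitters' processing notes name Partek 6.6, and the array test of the study was not given in the sources used here.

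Here, control spots were left out, outlier spots set to missing and spots of a probe averaged. Levels are log2 intensity minus the 75th percentile of the array. Probes well above background on at least 3 of 14 arrays were tested (29523, of which 97 lack a value on some array). Symbols came from matching unversioned RefSeq accessions to a GRCm38.p6 gene table (28223 of 29245 matched). Group means were fitted with limma 3.58.1 (R 4.3.3, lmFit and eBayes) over all arrays, with 1 weight for water (1.70) and 1 for DSS arrays (0.49) from arrayWeights, since DSS arrays vary more. Tests are two-sided, adjusted by Benjamini-Hochberg over all tested probes, and called at adjusted p under 0.05. The fit was checked on simulated data. Small intensities were raised to a positive surrogate value by the scanner software, which makes changes of dim probes look smaller.

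Groups and replicate numbers came from the labels. Same-numbered samples did not deviate together (correlations −0.23 to 0.31), so no pairing was used. The number of arrays limits the precision. Members, role groups, pathway and marker lists were chosen with earlier results of these data known. Values on every array are given for the members with the largest and smallest mean DSS change of each role group, and for any member called between genotypes. The alternatives were other weights, fewer arrays, replicate or slide as a block, other background correction, scaling, filters, probe choice and eBayes options, the value table, and leaving out each array. Background correction by normexp used the median spot signal, since no mean signal was in the files used. Values of 1 further gene of the pathway are not reported here.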

Additional observations from a re-analysis of the deposited data

Results flagged for a closer look

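In the 2 groups of 4 arrays, 5 of 74 member-by-group sets (6.76%) had a sample that stood apart from the other 3, where chance flags about 1 in 20. Ifit2 was at −3.14 on Flox water replicate 2, against −3.36 to −3.34 on the other arrays of the group. Gbp3 was at 0.70 on Flox water replicate 4, against 0.15 to 0.23. Oasl1 was at 0.95 on GR iKO water replicate 4, against 1.22 to 1.25, and Trim30a was at −1.16 on the same array, against −0.80 to −0.74. Igtp was at 1.87 on GR iKO water replicate 2, against 1.76 to 1.77. Each of these gaps was below 1 log2 unit. No member was called in the genotype by DSS interaction.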

How the results depend on the processing

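Across the alternatives other than spike-in scaling (28, of which 1 was chosen after seeing the data), 28 of 37 members were called with DSS in Flox and 31 in GR iKO under every one. Spike-in scaling called 20 members in Flox (3 higher, 17 lower) and 18 in GR iKO (all higher), and 15 in the interaction, against 85.9%, 45.5% and 29.3% of all probes. Members above 0 in Flox went from 33 to 14, and among those with values given for every array it turned Irgm1 (−0.25), Bst2 (−0.78), Lgals3bp (−1.21), Parp9 (−1.38), Parp14 (−1.01), Ddx58 (−1.05), Stat2 (−0.39) and Irf7 (−1.83). Averaging all probes of a gene turned Oas3 in Flox from −0.62 to 1.11. Between genotypes on DSS, where none was called, 3 members were called with 1 shared spread (13.2% of all probes), 1 with array quality weights (11.8%), 2 with analysis of variance without moderation on the value table (12.7%), and 2 with 1 shared spread without Flox DSS replicate 4 (20.1%), which was added after seeing the data. In the interaction, 1 was called with array quality weights (6.99% of all probes) and 1 with that added setting (7.52%). Leaving out single arrays gave 28 to 32 calls in Flox, 31 to 32 in GR iKO, and 0 in the other 3 comparisons. With the replicate number as a block, 31 members were called in Flox, 32 in GR iKO and 0 in the others, with the same members called as without it, and the samples share only a number. With slide as a block these were 30, 32 and 0. Causes of these shifts were not tested. Dim probes such as Oas1g, above background on 6 of 14 arrays, limit what could be seen.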
